A study of Mus musculus with 56 samples.

Results

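Cytochrome P450 enzymes are haem proteins that oxidise drugs, fatty acids, sterols, retinoids and vitamin D. All genes with a mouse symbol made of Cyp, a number, a letter and a number were examined over 7 regions of the male reproductive tract at 2 ages, except Cyp11a1 and Cyp17a1, the P450s of testosterone synthesis in Leydig cells. The rule found 91 members among 53379 genes. It left out 30 symbols of another form, such as Cyp51 and Cyp2ab1. The study sequenced RNA of C57BL/6 male mice aged 3 months and 21 months, with no treatment and no altered gene. The testis, the efferent ductules, the vas deferens and 4 parts of the epididymis (initial segment, then caput, corpus and cauda) each gave 4 libraries at each age, 56 in all. According to the study's methods the regions were taken from the same mice after fat and connective tissue had been removed. Mice came from 2 suppliers, and the labels do not say which supplier gave which age.

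P450s are named by sequence likeness: the number gives the family and the letter the subfamily. Families 1, 2 and 3 include the liver's drug-oxidising enzymes, and several of them also oxidise arachidonic acid. Family 4 enzymes mostly hydroxylate the far end of fatty acids and of inflammatory lipids such as leukotrienes. Microsomal P450s draw electrons from the reductase encoded by Por, and mitochondrial ones from ferredoxin, encoded by Fdx1. In the reproductive tract the retinoic acid hydroxylase CYP26B1 is known for keeping retinoic acid low in the fetal testis, and aromatase, CYP19A1, for making oestrogen. Efferent ductules, which link the testis with the epididymis, take up most of the fluid that leaves the testis, and the epididymis is where sperm mature and are stored.

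Libraries held 11125279 to 20561967 counts (median 16384049). No 2 libraries of a group agreed within sampling noise. A few libraries stood apart and touch results given here. The summed level of 4 markers of initial segment and caput was 574 and 234 counts per 1000000 (CPM) in 21-month efferent ductule replicates 2 and 3 and 1.67 to 4.88 CPM in the other 6 efferent ductule libraries. Summed macrophage markers stood at 1362 CPM in 3-month cauda replicate 3, against 281 to 298 CPM in the other 3. Summed seminal vesicle markers were 486 to 1929 CPM in 3 of the 21-month vas deferens libraries, 12.3 CPM in replicate 4 and 1.75 to 3.75 CPM at 3 months. Defining markers fitted the labels: Prm1 and Prm2 were testis specific, and the germ cell list summed to 7756 to 9424 CPM in testis and to at most 573 CPM elsewhere. The hepatocyte list summed to at most 6.84 CPM in any library.

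Promoters of 5 members are shown because these members led a region or changed with age: Cyp2j13 and Cyp2j11 (corpus), Cyp2e1 (efferent ductules), Cyp2d26 (testis) and Cyp1b1 (initial segment and caput). Each is the 250 bases before the RefSeq start on GRCm38.p6, read 5′ to 3′ on the gene's strand. The GENCODE gene start lay within 80 bases of the RefSeq start in all 5. Capitals mark any of 4 motifs, searched on both strands, and no matches shown overlap each other: the TATA box TATAAA, the core of the dioxin response element GCGTG, the androgen receptor hexamer TGTTCT and the HNF1 hexamer GTTAAT.
Cyp2j13 promoter, chr4:96077548-96077797, minus strand: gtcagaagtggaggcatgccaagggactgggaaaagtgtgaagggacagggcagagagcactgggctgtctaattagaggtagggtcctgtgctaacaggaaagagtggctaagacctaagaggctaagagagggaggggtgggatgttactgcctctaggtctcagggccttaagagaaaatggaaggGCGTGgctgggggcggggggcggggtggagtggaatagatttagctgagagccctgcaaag
Cyp2j11 promoter, chr4:96348681-96348930, minus strand: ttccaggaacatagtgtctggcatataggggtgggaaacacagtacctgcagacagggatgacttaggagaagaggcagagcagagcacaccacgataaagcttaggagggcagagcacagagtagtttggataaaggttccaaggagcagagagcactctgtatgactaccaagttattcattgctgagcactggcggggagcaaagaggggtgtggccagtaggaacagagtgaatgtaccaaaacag
Cyp2e1 promoter, chr7:140763569-140763818, plus strand: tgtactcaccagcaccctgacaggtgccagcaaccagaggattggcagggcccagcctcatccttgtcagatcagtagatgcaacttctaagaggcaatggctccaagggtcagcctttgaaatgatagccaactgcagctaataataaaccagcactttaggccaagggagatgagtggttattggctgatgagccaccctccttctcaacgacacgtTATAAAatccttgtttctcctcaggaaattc
Cyp2d26 promoter, chr15:82794246-82794495, minus strand: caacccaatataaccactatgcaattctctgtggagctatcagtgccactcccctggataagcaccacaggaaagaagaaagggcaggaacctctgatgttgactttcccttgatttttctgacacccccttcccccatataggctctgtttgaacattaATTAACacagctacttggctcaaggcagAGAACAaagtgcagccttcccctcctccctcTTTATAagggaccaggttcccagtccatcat
Cyp1b1 promoter, chr17:79715062-79715311, minus strand: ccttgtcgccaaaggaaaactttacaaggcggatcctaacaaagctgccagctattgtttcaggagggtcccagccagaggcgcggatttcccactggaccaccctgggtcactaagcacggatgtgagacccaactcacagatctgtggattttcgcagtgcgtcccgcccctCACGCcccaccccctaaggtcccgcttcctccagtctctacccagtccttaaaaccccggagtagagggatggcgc
In the Cyp2e1 promoter the capitals are a TATA box starting 31 bases before the start. Cyp2d26 held a TATA box, an androgen receptor hexamer and an HNF1 hexamer, all on the opposite strand, whose first printed letters stand 31, 62 and 90 bases before the start. GCGTG was found in the Cyp2j13 promoter at 61 bases and, on the opposite strand, in that of Cyp1b1 at 76 bases, and no motif was found in that of Cyp2j11. Cyp2j13 and Cyp2j11 start 271.1 kb apart, and 54.6% of 291 aligned bases of their promoters were identical, against 43.4% to 50.3% for the other pairs. Promoter entries were found for 71 members (80 promoters). TATAAA stood in 35% of these and in 12.4% of all 32851 promoters, GCGTG in 18.8% and 28.2%, TGTTCT in 21.2% and 16.1%, and GTTAAT in 12.5% and 6.43%. Such matches are short letter runs and not tested sites.

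Detection differed widely among the members. Of the 91, 23 reached a mean of 10 CPM in a group of 4 libraries, 29 lay between 1 and 10 CPM in their highest group, 36 were above 0 and under 1 CPM, and Cyp2b9, Cyp2c40 and Cyp3a44 had 0 counts. All 9 members of Cyp4f reached 1 CPM, as did 5 of 8 in Cyp2j, 4 of 8 in Cyp2d and 5 of 15 in Cyp2c. Of the 7 Cyp3a members, which include the main drug-oxidising P450s of liver, only Cyp3a57 reached 1 CPM. Neither Cyp7a1 nor Cyp8b1, enzymes of bile acid synthesis in liver, reached 1 CPM, whereas the other 4 sterol members (Cyp27a1, Cyp7b1, Cyp39a1 and Cyp46a1) each reached 10 CPM. At 3 months 22 (initial segment, caput) to 30 (corpus) members reached 1 CPM in a region. Near-identical copies limit some of these counts: in 33 members at least 10% of the 50-base stretches also occur in another gene.

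**Figure D1:**
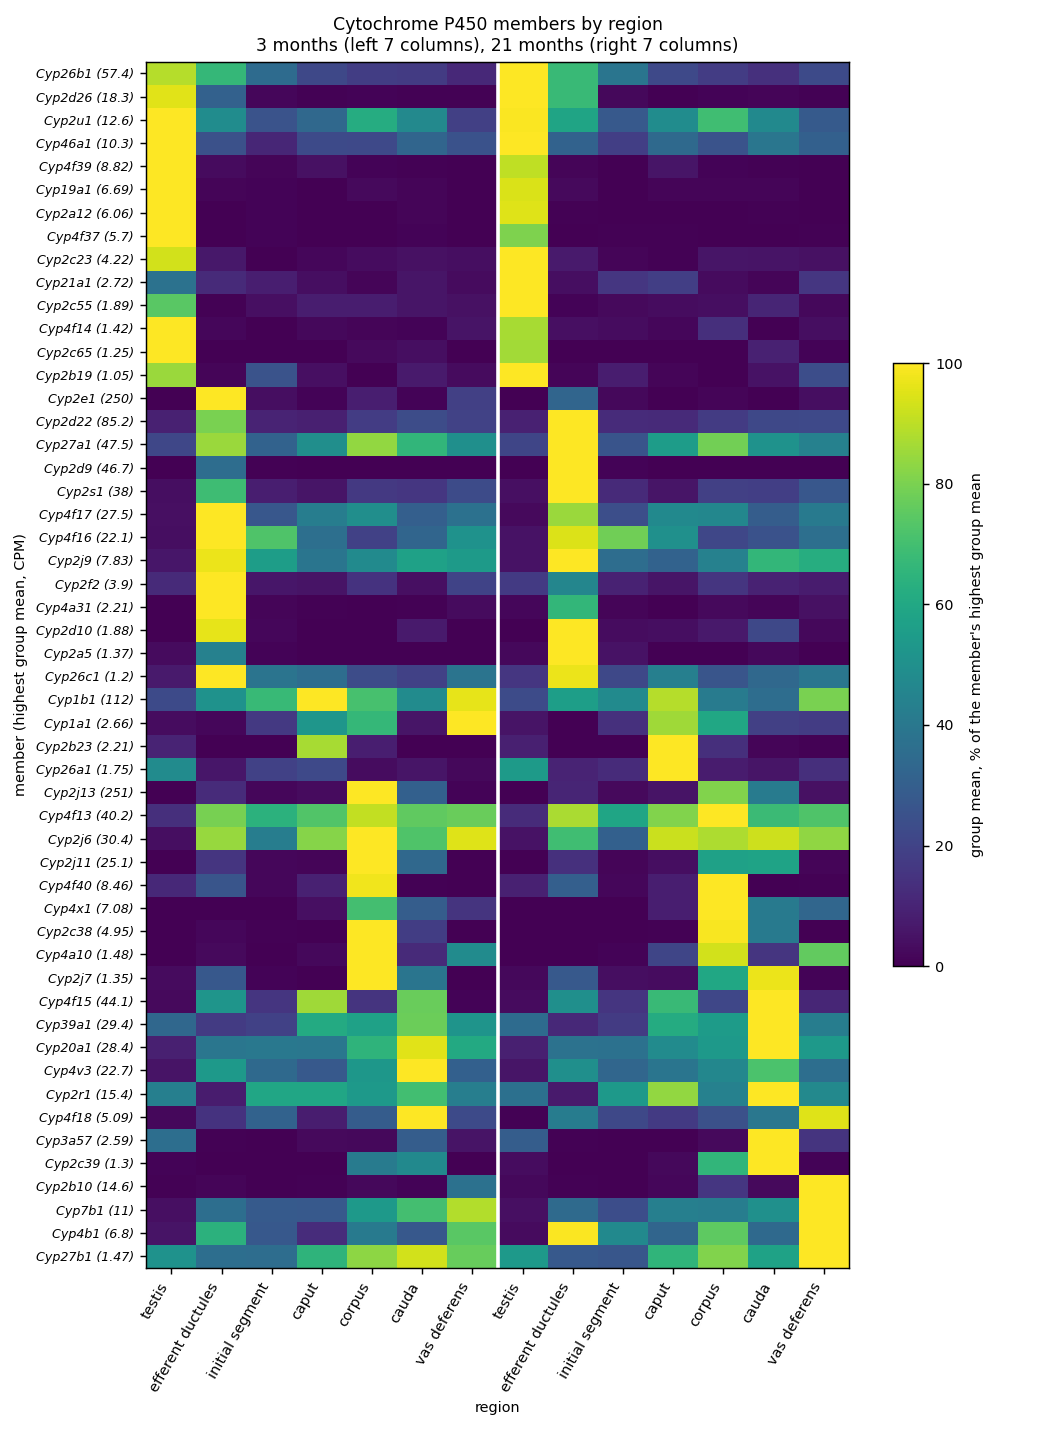
Heat map of the 52 members with a group mean of at least 1 CPM. Rows are members with their highest group mean in CPM, columns the 7 regions at 3 months (left) and 21 months (right), and colour the group mean of 4 libraries as a percentage of the row's highest. Blocks of testis, efferent ductule and corpus members occupy the same columns at both ages.

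The leading member differed along the tract when levels were divided by exon length. On this scale, CPM per kb at 3 months, Cyp2d26 (9.75) and Cyp26b1 (9.51) led in testis, Cyp2e1 (116) in efferent ductules, Cyp1b1 in initial segment (12.9) and caput (19.2), Cyp2j13 in corpus (53.5) and cauda (16.5), and Cyp2e1 (22.0) in vas deferens. The next members were Cyp27a1 in efferent ductules (18.6) and corpus (18.3), Cyp4f15 in caput (16.6) and cauda (14.9) and Cyp1b1 in vas deferens (18.5).

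Some members were present throughout the tract. Cyp1b1 (chromosome 17, 79701537 to 79715061) encodes an oxidase of oestrogens and polycyclic hydrocarbons. Its mean level at 3 months was 112 ± 19.97 CPM (SD, n = 4) in caput, 108 ± 3.05 in vas deferens, 79.2 ± 4.30 in corpus, 75.5 ± 13.3 in initial segment, 57.3 ± 5.63 in efferent ductules, 54.1 ± 9.12 in cauda and 25.0 ± 2.32 in testis. In that order, caput and vas deferens (adjusted p = 0.87), corpus and initial segment (0.709), and efferent ductules and cauda (0.611) were not separated by the test, and every other neighbouring pair was. Cyp27a1, the mitochondrial sterol 27-hydroxylase, ranged from 10.1 ± 0.712 CPM in testis to 40.3 ± 2.55 in efferent ductules and 39.9 ± 2.59 in corpus, and the latter pair did not differ beyond its spread (adjusted p = 0.958). Cyp4f13 ranged outside testis from 25.8 ± 2.27 CPM in initial segment to 36.5 ± 3.68 in corpus, a pair whose test is not given here, and no neighbours in its order were separated by the test except initial segment and testis (5.48 ± 0.890 CPM, log2 difference 2.22, SE 0.15, adjusted p = 2.01e-14). Means of Cyp26b1 decreased from testis to caput at 3 months. It stood at 50.9 ± 3.75 CPM in testis, 38.2 ± 5.87 in efferent ductules, 20.1 ± 3.63 in initial segment, 12.4 ± 1.82 in caput and 6.57 ± 3.67 in vas deferens, with means of 10.5 in corpus and 10.1 in cauda. The drops from efferent ductules to initial segment (adjusted p = 9.52e-04) and on to caput (0.0271) passed the test, and testis against efferent ductules did not (0.0975). Caput and corpus (0.492), corpus and cauda (0.964) and cauda and vas deferens (0.0527) were not separated. At 21 months the mean in vas deferens was 12.9 CPM, against 12.6 in caput, 10.2 in corpus and 8.06 in cauda. A rise with age in vas deferens was called by DESeq2 (adjusted p = 0.0361) and not by edgeR.

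A member was called region specific when edgeR gave an adjusted p under 0.05 against the mean of the other 6 regions and its mean CPM was at least 4 times theirs. At 3 months there were 48 calls in 47 members among 68 tested, or 10.1% of the member and region pairs against 6.85% of all pairs of genes and regions. Called members made up 29.4% in testis (20 members; 28.8% of all genes), 14.7% in efferent ductules (10; 5.71%), 16.2% in corpus (11; 2.69%), 2.94% in caput (2; 3.05%), 2.94% in cauda (2; 2.33%) and 4.41% in vas deferens (3; 2.9%). No member was called in initial segment (2.48% of all genes) by edgeR at 3 months, and the count was also 0 with an unadjusted p under 0.05 and with DESeq2. The testis share was close to that of all genes, and the shares in efferent ductules and corpus were above it. Where the mean had to be 4 times that of each other region, 23 of the 48 calls were left. As these are bulk tissues, a higher number of cells of a type and more RNA per cell cannot be told apart, here and below.

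Testis-specific members came from many subfamilies. Cyp2d26 (chromosome 15, 82790101 to 82794294) had 16.8, 19.0, 16.8 and 17.3 CPM in the 4 testis libraries at 3 months and 5.31, 4.43, 7.28 and 5.78 CPM in efferent ductules, and its mean was at most 0.302 CPM in the other regions. Testis and efferent ductules did not overlap, and the mean CPM in testis was 16.1 times that over the other 6 regions. On the log2 scale the fitted level in testis exceeded the mean of the 6 fitted levels by 5.96 (SE 0.21, adjusted p = 2.68e-22). Cyp46a1, the cholesterol 24-hydroxylase known from brain, had 10.1, 10.9, 9.87 and 10.3 CPM in testis and means of 1.11 to 3.36 CPM elsewhere. Its ratio of 4.36 was close to the limit and was 4.00, under it, without replicate 3 of every region. Aromatase, Cyp19a1, stood at 6.69 ± 0.722 CPM in testis, 91.1 times the other regions. Cyp4f39, whose enzyme makes very long omega-hydroxy fatty acids for skin ceramides, stood at 8.82 ± 2.10 CPM. Cyp2a12 (6.06 ± 1.30 CPM), Cyp4f37 (5.70 ± 0.725) and Cyp2c23 (3.94 ± 0.363) had ratios of 215, 250.3 and 28.7, although 20.1% of the 50-base stretches of Cyp2a12 and 19.7% of those of Cyp4f37 occur in other genes. Of the 20 testis calls 11 had a mean of at least 1 CPM. Among these, the calls of Cyp2d26, Cyp46a1 and Cyp21a1 were lost where the mean had to be 4 times that of each other region.

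Efferent ductules held Cyp2e1 and a group of Cyp2d genes. CYP2E1 oxidises ethanol and other small molecules in liver and is also expressed in fat. Cyp2e1 (chromosome 7, 140763739 to 140774987) had 203, 215, 213 and 371 CPM in efferent ductules, 67.8, 32.9, 55.95 and 33.4 CPM in vas deferens, 6.48, 19.5, 37.4 and 19.3 CPM in corpus, and 0 counts in testis, which allows up to 0.0421 CPM (3 counts over the group). The efferent ductule libraries were all above the rest, 18.4-fold above the average of the other regions (adjusted p = 4.20e-16). Adipocyte markers were high in the same place: 6 of the 7 on the list (Plin1, Fabp4, Cidec, Lep, Retn and Adipoq) were efferent ductule specific at 3 months, with Plin1 at 76.7 ± 16.7 CPM and Adipoq at 42.3 ± 10.1 CPM, and the part of adipocytes in the Cyp2e1 level was not tested. Cyp2d22 had 64.7, 67.6, 73.1 and 66.9 CPM in efferent ductules and means of 7.52 to 19.6 CPM elsewhere, 5.47 times the mean of the others. Cyp2d9 was almost confined to this region, with 14.1, 12.3, 20.6 and 19.9 CPM and a mean of at most 0.196 CPM in any other region (ratio 376, adjusted p = 9.01e-18). Cyp2d10 (1.82 ± 0.268 CPM) and Cyp2d11 (0.275 ± 0.164 CPM) were called as well, and 35.8% of the stretches of Cyp2d10 and 21.8% of those of Cyp2d9 are shared with other genes. Cyp2d22 and Cyp2d9 start 53.2 kb apart, and Cyp2d26 starts 360.9 kb from Cyp2d9. Cyp2s1, an epithelial P450, had 25.6, 28.6, 24.4 and 26.5 CPM and 5.74 times the mean of the others. The calls of Cyp2s1 and Cyp2d22 were lost where the mean had to be 4 times that of each other region. The lung enzyme gene Cyp2f2 (3.90 ± 0.817 CPM) and the fatty acid hydroxylase Cyp4a31 (2.21 ± 0.603 CPM) completed the calls of at least 1 CPM.

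Corpus held the highest levels of Cyp2j13 and Cyp2j11, of a subfamily whose enzymes epoxidise arachidonic acid. The 8 Cyp2j genes lie within 636.6 kb of chromosome 4 (96027534 to 96664154). Cyp2j13 had 223, 281, 212 and 287 CPM in corpus, 84.7, 79.5, 51.8 and 92.5 CPM in cauda, 28.2, 28.2, 35.6 and 32.9 CPM in efferent ductules and 0 counts in testis. Corpus, cauda and efferent ductules did not overlap, and each was separated from the next (adjusted p = 2.50e-05 and 3.37e-04). Cyp2j11 followed the same order at a lower level, with 17.5, 26.5, 25.2 and 31.2 CPM in corpus, a mean of 8.49 ± 3.12 CPM in cauda and of 3.83 ± 1.29 CPM in efferent ductules. Ratios to the other 6 regions were 12.3 for Cyp2j13 and 11.5 for Cyp2j11. Cyp2j6, by contrast, was broad, with means of 12.9 to 30.4 CPM in the 6 regions outside testis, and Cyp2j9 was highest in efferent ductules (mean 7.61 CPM, against 3.75 CPM in corpus). Other corpus calls of at least 1 CPM were Cyp4f40 (8.28 ± 1.08 CPM), Cyp4x1 (4.95 ± 1.54), Cyp2c38 (4.95 ± 1.81), Cyp4a10 (1.48 ± 0.365) and Cyp2j7 (1.35 ± 0.435). Of these 7 corpus calls, that of Cyp2c38 was kept where the mean had to be 4 times that of each other region, and the other 6 were lost.

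Few members marked the remaining regions. Cyp2b23 was caput specific at 1.92 ± 0.413 CPM (ratio 27.9). Cyp2b10, a gene known for induction by the nuclear receptor CAR in liver, was vas deferens specific, with 5.82, 6.57, 4.11 and 5.45 CPM there and a mean of at most 0.290 CPM in any other region (ratio 41.8, adjusted p = 1.34e-17). A pair of further calls rested on 1 library each. Cyp1a1, the classical target of the aryl hydrocarbon receptor, had 8.36, 0.375, 1.14 and 0.779 CPM in vas deferens, and its ratio of 4.11 became 1.27 without replicate 1. Cyp4f18, a leukotriene hydroxylase gene of myeloid cells, had 2.09, 2.48, 13.3 and 2.49 CPM in cauda, and its ratio of 5.58 became 2.30 without replicate 3, the library with 1362 CPM of macrophage markers. Cyp4f18 shares 181 bases with Zfp961 on the other strand. The other calls in these regions (Cyp2t4 in caput, Cyp2c39 in cauda and Cyp3a13 in vas deferens) were of members under 1 CPM there.

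**Figure D2:**
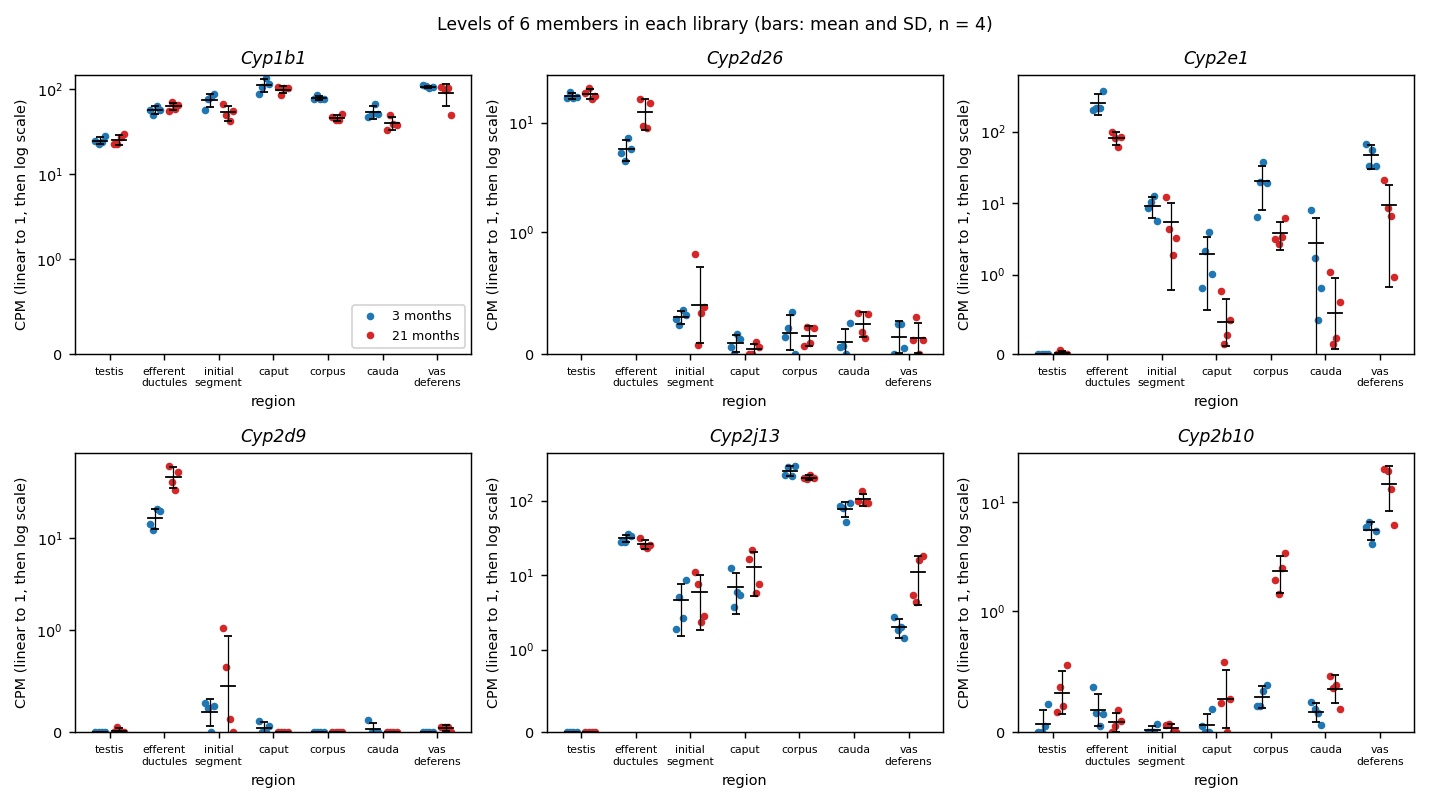
Levels in CPM (linear to 1, then logarithmic) of 6 members in each library, by region, at 3 months (blue) and 21 months (red), with the mean and SD of 4 libraries. Cyp1b1 lies between 22.8 and 136 CPM throughout, while Cyp2j13 is at 0 in testis and the other 4 are at or near 0 in at least 1 region.

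Levels of many members changed between neighbouring regions. From testis to efferent ductules 32 of the 68 members tested at 3 months were higher and 25 lower (75.2% of all genes changed). Then 28 were lower and 4 higher in initial segment than in efferent ductules (42.5% of all genes, 24.7% lower and 17.8% higher), with a median log2 difference of -1.08 over the members and -0.12 over all genes. From initial segment to caput 10 were higher and 4 lower (27.4%), from caput to corpus 22 and 7 (32.7%; 18.0% higher and 14.7% lower), from corpus to cauda 9 and 15 (23.4%) and from cauda to vas deferens 9 and 15 (36.3%). More members were thus lower than higher at entry to the epididymis, and more were higher than lower at the caput and at the corpus. At 21 months the step into initial segment was again mostly downward (30 lower, 4 higher of 71; 44.6% of all genes, 23.5% lower and 21.1% higher). The steps from initial segment to caput (18 higher, 7 lower; 14.9% and 14.8% of all genes) and from caput to corpus (18 higher, 8 lower; 16.9% and 15.4%) were both mostly upward.

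The 21-month libraries, which come from other mice, gave 50 region-specific calls among 71 members tested, 10.1% of pairs against 6.81% of all. They were 17 in testis (27.6% of all genes), 13 in efferent ductules (5.22%), 2 in initial segment (4.21%), 3 in caput (1.77%), 7 in corpus (2.88%), 5 in cauda (1.97%) and 3 in vas deferens (3.98%). Calls shared by the ages numbered 36, which is 75% of the 3-month calls and 72% of the 21-month calls, against 79.2% and 79.5% over all genes. They included 15 of the testis, 10 of the efferent ductules and 7 of the corpus. Cyp2j11 was called in corpus and also in cauda at 21 months, where its means were 14.4 ± 3.23 and 14.6 ± 6.30 CPM. The cauda call was lost without replicate 2 (ratio 3.22) and the corpus call without replicate 4 (3.86) and with library size scaling. Scaling by library size also ended the corpus call of Cyp4a10. None of the 6 corpus and 4 cauda calls of at least 1 CPM at 21 months was kept against each other region. Cyp2d26 was called in efferent ductules (ratio 4.32) beside testis, and that call was lost without replicate 1 or 4 (3.55 at the lowest), and also with DESeq2, with its size factors, with filterByExpr and without Gm42418. Calls of Cyp2f2 in efferent ductules (ratio 3.51 without replicate 1) and Cyp1a1 in caput (3.89 without replicate 2) were as near the limit.

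Age was tested in each region with edgeR's quasi-likelihood test, adjusted over all genes of the region. There were 26 calls in 17 members, 16 higher (3.31% of all tests) and 10 lower (2.96%) at 21 months, or 8.5% of 306 tests against 6.27% of all tests in the 7 regions. Of the members tested, 16.7% changed in efferent ductules (8 of 48; 6.99% of all genes), 18.2% in vas deferens (8 of 44; 19.9%), 10.9% in corpus (5 of 46; 2.97%), 7.69% in caput (3 of 39; 8.14%), 2.78% in initial segment (1 of 36; 6.35%) and 2.13% in testis (1 of 47; 0.563%). The efferent ductule count was 3 with the replicate block and 2 to 7 without a library, and that of testis was 0 in 1 fit of all 56 libraries. No member was called in cauda by edgeR (0.128% of all genes), while 12 of 46 had an unadjusted p under 0.05 (10.5% of all genes), DESeq2 called Cyp3a57 alone, and the median log2 difference was 0.28 over the members and 0.0028 over all genes.

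**Figure D3:**
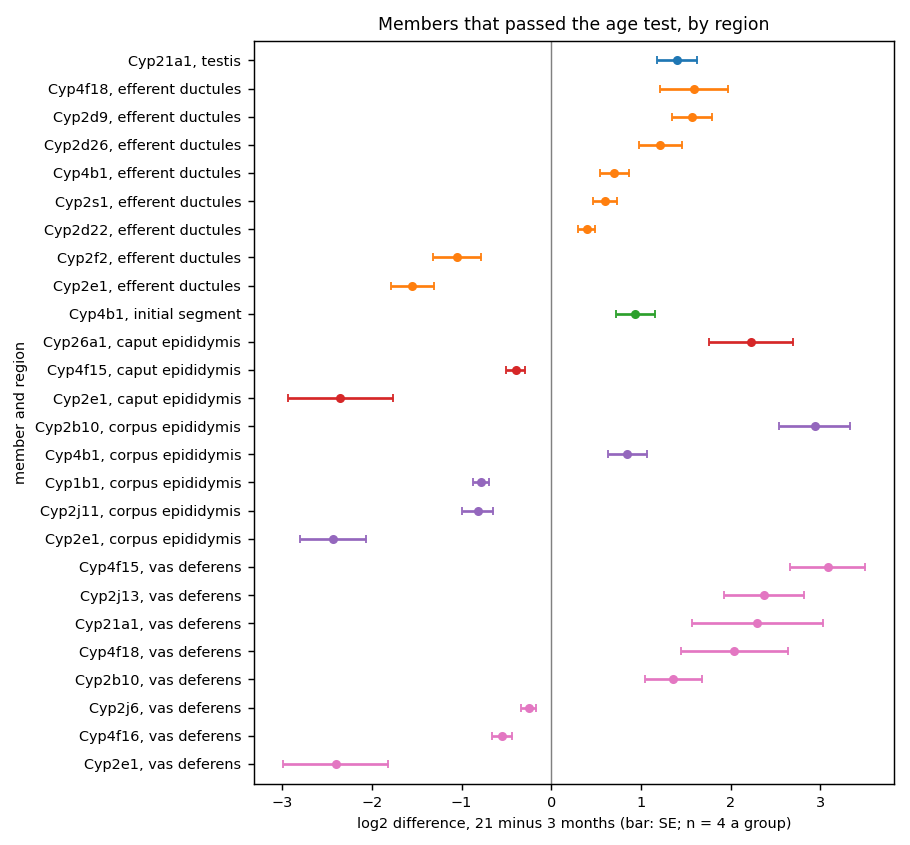
The 26 age calls of members by region. Points are log2 differences, 21 minus 3 months, bars their SE (4 libraries in each age), and colours mark regions. Cyp2e1 lies left of 0 in all 4 regions where it was called, between -1.55 and -2.43.

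Cyp2e1 was lower at 21 months in the mean of all 6 duct regions and was called in 4. Its levels in efferent ductules were 203, 215, 213 and 371 CPM at 3 months and 99.9, 80.8, 61.2 and 84.6 CPM at 21 months. The ages did not overlap (log2 difference -1.55, SE 0.24, adjusted p = 0.00925), and the call held without each library in turn. In corpus it went from 6.48, 19.5, 37.4 and 19.3 CPM to 3.12, 2.64, 3.38 and 6.18 CPM (log2 difference -2.43, SE 0.37, adjusted p = 0.00151), again without overlap. Vas deferens had 67.8, 32.9, 55.95 and 33.4 CPM at 3 months and 20.9, 8.63, 6.53 and 0.970 CPM at 21 months (log2 difference -2.41, SE 0.59, adjusted p = 0.0163). Every old library was below every young one there, but without 3-month replicate 1 the adjusted p was 0.0575. Caput showed a low level, 1.97 ± 1.41 CPM at 3 months and 0.399 ± 0.293 CPM at 21 months, with an adjusted p of 0.0285, and the call was lost in 5 of the 8 fits that left out a library (without 3-month replicate 2 or 3, or 21-month replicate 2, 3 or 4; 0.107 at the highest). In initial segment (log2 difference -0.63, SE 0.41) and cauda (-2.39, SE 0.91) the test did not call it.

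Of the 7 adipocyte markers, 2 were called lower with age in efferent ductules (6.99% of all genes called), 2 in corpus (2.97%) and none in caput (8.14%) or vas deferens (19.9%), the regions where Cyp2e1 was called. Their median log2 difference was below 0 in each: -0.869 in efferent ductules, -1.03 in corpus, -1.87 in caput and -1.02 in vas deferens. The 7 markers summed to 461, 604, 424 and 637 CPM in efferent ductules at 3 months and to 299, 423, 239 and 128 CPM at 21 months. Retn, encoding resistin (log2 difference -2.50, SE 0.25, adjusted p = 0.00317), and Fabp4 (-1.36, SE 0.33, 0.0351) passed the test there, and none of the 7 was higher. In corpus the sums were 48.8, 125, 192 and 65.8 CPM against 47.0, 41.1, 58.2 and 83.5 CPM, with overlap between the ages and with Retn and Cidec lower. Those in vas deferens were 135, 40.4, 94.2 and 69.5 CPM against 89.8, 66.3, 60.3 and 29.7 CPM, also with overlap. Pparg, the nuclear receptor of fat cell differentiation, was lower in efferent ductules (9.45 ± 1.46 to 4.21 ± 0.864 CPM, adjusted p = 0.0150). The part of adipocytes in the fall of Cyp2e1 was not tested. Testis had list sums of 360 to 463 CPM, of which Lipe, also a testis gene, made 386 ± 35.2 CPM at 3 months, and Cyp2e1 was at 0 there at 3 months and at a mean of 0.0134 CPM at 21 months.

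**Figure D4:**
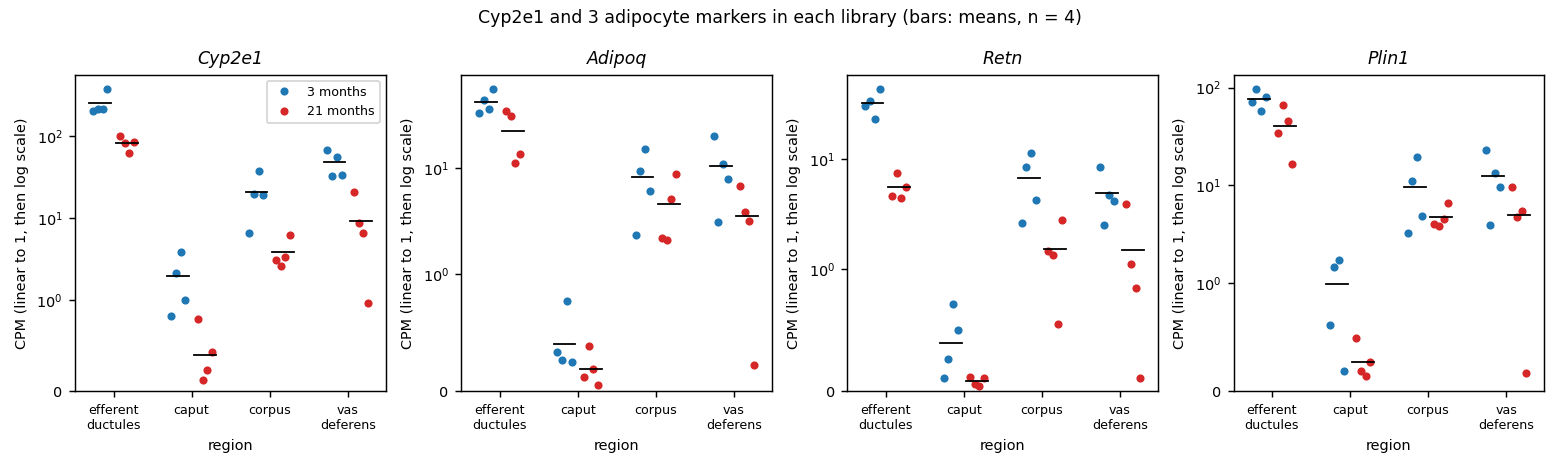
Cyp2e1 and 3 adipocyte markers, Adipoq, Retn and Plin1, in each library of 4 duct regions at 3 months (blue) and 21 months (red); CPM on an axis linear to 1 and then logarithmic, with bars at the mean of 4 libraries. Means of all 4 genes are lower at 21 months in each region shown, and the 21-month vas deferens library with the lowest Cyp2e1, 0.970 CPM, is also lowest for the 3 markers.

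Other changes in efferent ductules were mostly upward: with Cyp2e1, 6 members rose (4% of all genes) and 2 fell (2.98%). Cyp2d9 went from 14.1, 12.3, 20.6 and 19.9 CPM to 60.4, 40.3, 33.6 and 52.4 CPM, with no overlap (log2 difference 1.57, SE 0.22, adjusted p = 0.00710), and the call held without each library in turn. Cyp2d26 rose from 5.31, 4.43, 7.28 and 5.78 CPM to 16.4, 9.39, 8.90 and 15.0 CPM (log2 difference 1.21, SE 0.24, adjusted p = 0.0186), and lost the call without any single one of the 3-month libraries (0.0674 at the highest). Smaller rises were those of Cyp2s1 (26.3 ± 1.78 to 38.1 ± 6.72 CPM, adjusted p = 0.0276), the fatty acid hydroxylase Cyp4b1 (4.37 ± 0.383 to 6.76 ± 0.872 CPM, 0.0310), Cyp2d22 (68.0 ± 3.57 to 85.2 ± 10.5 CPM, 0.0343) and Cyp4f18 (0.754 ± 0.216 to 2.15 ± 0.967 CPM, 0.0338). Cyp2f2 fell from 3.90 ± 0.817 to 1.79 ± 0.523 CPM (0.0413). These 5 calls were lost with the replicate number as a block and each of them in 4 to 7 of the 8 fits that left out a library. All 5 were lost without 3-month replicate 1, 3 or 4 and without 21-month replicate 3 (adjusted p of 0.128 at the highest). Scaling by library size alone gave a median log2 difference of -0.38 over all genes in this region, against -0.04 with TMM scaling, and Cyp2s1, Cyp4b1 and Cyp2d22 lost their calls under it. Macrophage markers summed to 233 to 248 CPM at 3 months and 301 to 406 CPM at 21 months here, and their part in the rise of Cyp4f18 was not tested. Markers of T cells (4 of 6), B and plasma cells (3 of 4) and smooth muscle (2 of 5) were also called higher here. Their part in the changes of the members was not tested. The share of counts from Gm42418 was 1.27% to 3.30% at 3 months and 4.93% to 22.2% at 21 months without overlap, and all 8 calls held when it was left out. Without 21-month replicates 2 and 3, the libraries with high sums of initial segment and caput markers, the other 7 calls held and that of Cyp2f2 was lost.

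In corpus 4 further members were called. Cyp1b1 fell from 77.5, 85.7, 76.4 and 77.5 CPM to 47.6, 43.2, 44.1 and 51.5 CPM (log2 difference -0.78, SE 0.09, adjusted p = 2.10e-04). Cyp2b10 rose from 0.214, 0.216, 0.343 and 0.387 CPM to 1.92, 1.43, 2.47 and 3.41 CPM (log2 difference 2.94, SE 0.39, adjusted p = 5.42e-04). In neither did the ages overlap, and both calls held without each library in turn. Cyp2j11 fell from 17.5, 26.5, 25.2 and 31.2 CPM to 15.8, 10.7, 12.9 and 18.0 CPM (log2 difference -0.82, SE 0.17, adjusted p = 0.0125), with 1 young library below the highest old one, and lost the call without 21-month replicate 2 (0.0541). Its neighbour Cyp2j13 was not called (251 ± 38.5 and 204 ± 13.3 CPM). Cyp4b1 rose from 2.80 ± 0.890 to 5.11 ± 0.424 CPM (adjusted p = 0.0461), a call kept without 3-month replicate 3 and lost without any other single library (0.140 at the highest).

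In vas deferens Cyp4f15 and Cyp2j13 rose from low levels. Cyp4f15, a fatty acid hydroxylase gene, rose from 0.212, 0.375, 0.890 and 0.584 CPM to 2.62, 3.33, 6.24 and 6.62 CPM (log2 difference 3.08, SE 0.42, adjusted p = 0.00123). Cyp2j13 rose from 2.75, 1.81, 2.03 and 1.41 CPM to 5.47, 4.39, 16.0 and 17.8 CPM (log2 difference 2.37, SE 0.44, adjusted p = 0.00508). Neither overlapped between ages, and both held without each library in turn. Genes that mark parts of the epididymis were also higher in these libraries, without overlap between the ages: 273 initial segment-specific genes summed to 926 to 970 CPM at 3 months and 1118 to 1165 CPM at 21 months, 202 corpus-specific genes summed to 174 to 207 CPM at 3 months and 280 to 399 CPM at 21 months, and 183 cauda-specific genes to 556 to 814 and 964 to 2042 CPM. These genes were picked at 3 months, with a mean at least 4 times that of each other region. The young vas deferens libraries were thus used to pick them, and a rise of the sums with age is in part favoured by that choice. Among cell type markers, 6 of 6 of T cells (summed 6.86 ± 1.38 CPM at 3 months and 27.8 ± 13.7 CPM at 21 months), 4 of 4 of B and plasma cells (10.4 to 23.2 CPM and 474 to 1004 CPM) and 4 of 5 of smooth muscle (10340 to 11180 and 11830 to 18880 CPM) rose in these libraries. The part of epididymal tissue and of these cell types in the changes of the members was not tested. Cyp2b10 stood at 5.82, 6.57, 4.11 and 5.45 CPM and 20.1, 19.2, 13.1 and 6.11 CPM (log2 difference 1.36, SE 0.32, adjusted p = 0.0141), and the lowest old library, replicate 4, overlapped the young ones. That replicate also had the lowest Cyp1b1 (50.2 CPM against 97.7 to 108 in the other 3) and the most T cell (46.9 CPM) and B and plasma cell (1004 CPM) transcripts of the vas deferens. Cyp4f18 had 1.06, 1.38, 1.14 and 0.973 CPM at 3 months and 2.51, 2.32, 1.97 and 12.6 CPM at 21 months (log2 difference 2.04, SE 0.60, adjusted p = 0.0349), and its log2 difference was 0.93 without replicate 4. Calls of Cyp4f18 were lost with the replicate block and without any single 3-month library, 0.0934 at the highest. Small decreases were those of Cyp4f16 (11.3 ± 0.802 to 8.07 ± 0.938 CPM, adjusted p = 0.00763) and Cyp2j6 (28.9 ± 1.75 to 25.3 ± 1.89 CPM, 0.0447). The call of Cyp2j6 held without 21-month replicate 4 and was lost without any other single library (0.109 at the highest). Cyp21a1, under 1 CPM here, rose as well, with overlap between the ages (adjusted p = 0.0482).

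In caput 3 of 39 members were called with age (7.69%; 8.14% of all genes), in initial segment 1 of 36 (2.78%; 6.35%) and in testis 1 of 47 (2.13%; 0.563%). Cell type markers also moved: in caput 5 of 5 of smooth muscle were called lower and 3 of 6 of T cells higher. In initial segment 6 of 8 of germ cells were called lower and 4 of 6 of T cells higher. Their part in the changes of the members was not tested. Cyp26a1, a retinoic acid hydroxylase, rose in caput from 0.443, 0.535, 0.0548 and 0.503 CPM to 2.08, 1.03, 1.62 and 2.28 CPM (log2 difference 2.22, SE 0.47, adjusted p = 0.0150). The ages did not overlap, and the call was lost without 21-month replicate 1 (0.0572) or 4 (0.0520). Cyp4f15 fell in caput from 37.9 ± 2.48 to 29.9 ± 2.63 CPM (log2 difference -0.40, SE 0.11, adjusted p = 0.0409), a change kept without 3-month replicate 1 or 4 and lost without any other single library (0.126 at the highest), and lost when only library size was scaled, where the median log2 difference of all genes was 0.19 against -0.01 with TMM scaling. The noncoding gene Gm42418 took 49.7% of the counts of 3-month caput replicate 2 and 6.54% to 9.49% in the other 3, and all 3 caput calls held when Gm42418 was left out. Cyp4b1 rose in initial segment from 1.87 ± 0.289 to 3.24 ± 0.509 CPM (adjusted p = 0.0190), and not without 3-month replicate 3 or 21-month replicate 2 (0.0661 at the highest). Cyp4b1 was thus called in 3 regions, each time higher at 21 months. The single call in testis was Cyp21a1, the steroid 21-hydroxylase of the adrenal cortex, which rose from 1.03, 0.815, 1.04 and 1.24 CPM to 2.40, 2.74, 3.43 and 2.32 CPM (log2 difference 1.40, SE 0.22, adjusted p = 0.00168) without overlap. Of the other adrenal genes of the list, Mc2r stood at means of 0.0706 and 0.0818 CPM in testis, Cyp11b1 had 1 count at each age, and Cyp11b2 had 0. Of the 7 genes of the Leydig cell list (median log2 difference -0.34), Star (33.8 ± 5.17 to 68.5 ± 8.33 CPM) and Hsd3b6 (61.3 ± 12.97 to 99.7 ± 14.5 CPM) rose and Cyp11a1 fell (92.6 ± 16.9 to 61.1 ± 7.53 CPM). Reads of Cyp21a1 are uncertain, since 21.3% of its stretches also occur in the pseudogene Cyp21a2-ps.

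Whether the age effect differed between regions was tested over all 56 libraries. It did for 10 of 74 members, 13.5% against 20.2% of all genes. Cyp4f15 (adjusted p = 1.69e-04), higher in vas deferens and lower in caput at 21 months, and Cyp4f18 (0.00127), higher in efferent ductules and vas deferens, were the members called without each replicate number in turn. Cyp2j13 (0.00687), Cyp21a1 (0.0112), Cyp2j11 (0.0120), Cyp1a1 (0.0141), Cyp1b1 (0.0188), Cyp2f2 (0.0290), Cyp2t4 (0.0409) and Cyp2r1 (0.0427) were each lost in at least 1 such fit: Cyp2j13 and Cyp2j11 without number 3 or 4, Cyp21a1 and Cyp1a1 without 1, 2 or 3, Cyp1b1 without 2 or 3, and the other 3 without any (0.327 at the highest, for Cyp2r1). Other alternatives also ended calls: that of Cyp1b1 was lost with library size scaling (0.0801), that of Cyp2f2 without the testis libraries (0.0551) and that of Cyp2r1 with DESeq2 size factors, without a filter and without the testis (0.0909 at the highest), and Cyp2t4 was not called by DESeq2. Cyp2r1, a vitamin D 25-hydroxylase gene, was called in no single region: its largest differences of means were in caput (9.12 ± 2.54 and 12.9 ± 0.957 CPM) and cauda (10.8 ± 1.82 and 15.4 ± 4.73 CPM). The difference did not pass for Cyp2e1 or Cyp2b10 (0.0662).

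Genes that supply or steer the P450s changed in part. Of all genes tested, 19.9% were called with age in vas deferens, 8.14% in caput, 6.99% in efferent ductules and 2.97% in corpus. The reductase gene Por, tested with 6 other redox partners, rose in vas deferens from 75.7 ± 2.81 to 121 ± 10.9 CPM (adjusted p = 0.00139) and was called in no other region. Fdx1 rose in efferent ductules from 11.1 ± 0.691 to 15.3 ± 1.84 CPM (0.0321). Pgrmc1, a haem-binding membrane protein that interacts with P450s, fell in vas deferens from 846 ± 36.9 to 581 ± 104 CPM (0.00288) and rose in caput from 459 ± 61.3 to 657 ± 74.1 CPM (0.0233), where the cytochrome b5 reductase gene Cyb5r3 fell from 109 ± 9.88 to 80.9 ± 1.59 CPM (0.0141). Of the retinoic acid genes, Aldh1a2 and Aldh1a3, which make retinoic acid, and the retinal reductase Dhrs3 rose in efferent ductules. In caput, where Cyp26a1 rose, Rarg, Stra6 and Dhrs3 fell. Aldh1a1 fell in corpus from 1654 ± 113 to 1107 ± 54.7 CPM (0.00376). Of 11 xenobiotic and lipid receptors, Pparg fell and Vdr rose in efferent ductules, and Ahrr and Ppara fell and Nr1i3, under 0.3 CPM, rose in vas deferens. Ahr was called in no region. Of the soluble and microsomal epoxide hydrolases that act on P450 products, Ephx2 rose in caput (18.9 ± 5.57 to 33.3 ± 5.39 CPM) and fell in vas deferens (137 ± 10.5 to 84.1 ± 9.32 CPM), and Ephx1 rose in corpus (38.6 ± 3.66 to 59.6 ± 7.61 CPM).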

How the data were processed

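RNA of 56 samples was measured by stranded total RNA sequencing. The authors deposited raw read counts per Ensembl gene, without normalization. Per the labels the reads were trimmed with cutadapt, aligned with HISAT2 to mm10 and counted with HTSeq, with no versions. The annotation release, strand setting and counting mode are not given in the sources used here, so reads of genes that overlap on opposite strands may not be separated. Labels name TRIzol and the study's methods RNeasy for RNA extraction.

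Symbols and exon lengths came from GENCODE M21 (53274 of 53379 rows matched). Genes with at least 10 counts over a fit were tested by the quasi-likelihood F-test of edgeR 4.0.16 in R 4.3.3 with TMM scaling, and every adjusted p is Benjamini-Hochberg over all genes of that comparison. DESeq2 1.42.0, other scalings and filters, a replicate block and fits without a library were alternatives. Fits used 8 libraries (age), 28 (regions) or 56 (interaction); the numbers of region ratios are on the scale of the 28-library fit, and all other levels are TMM-scaled CPM over 56 libraries. The SE is that of the fitted log2 difference. The floor of 3 counts covers counting error only. Whether replicates are separate mice is not in the labels, but the study's methods give 4 mice of each age for sequencing. The main fits over several regions took libraries as independent, although regions came from the same mice. Scripts were tested on simulated data. Values per library are given for the 3 highest members of each region, region-specific members of at least 10 CPM, age calls of at least 1 CPM and interaction calls, in part as mean ± SD or range. Members and lists were chosen with earlier results of these data known. Results that need 1 gene of the retinoic acid list are not reported here.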

Additional observations from a re-analysis of the deposited data

Results flagged for a closer look

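In groups of 4 libraries of the members named, 12 of 119 groups had a library far from the other 3, and chance flags about 1 in 20 groups. Cyp1a1 stood out in 3 groups: replicate 2 of 21-month caput at 3.14 CPM and replicate 1 of 3-month vas deferens at 8.36 CPM were high, and replicate 2 of 3-month corpus at 1.37 CPM was low. Cyp1b1 was low in replicate 2 of 21-month caput (84.7 CPM) and high in replicate 2 of 3-month corpus (85.7 CPM). Cyp26b1 was high in replicate 2 of 3-month initial segment (25.5 CPM), and Cyp2e1 in replicate 4 of 3-month efferent ductules (371 CPM). In 21-month cauda replicate 2 was high for Cyp2j11 (23.9 CPM) and Cyp2r1 (22.5 CPM). In 3-month cauda replicate 3 was high for Cyp4f18 (13.3 CPM) and low for Cyp4f15 (19.0 CPM). In 21-month vas deferens replicate 4 was high for Cyp4f18 (12.6 CPM).

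The age effect differed between regions by the interaction test for 9 members with at least 1 CPM: Cyp4f15 (adjusted p = 1.69e-04), Cyp4f18 (0.00127), Cyp2j13 (0.00687), Cyp21a1 (0.0112), Cyp2j11 (0.0120), Cyp1a1 (0.0141), Cyp1b1 (0.0188), Cyp2f2 (0.0290) and Cyp2r1 (0.0427). Cyp1a1 was called with age in no single region by edgeR and in vas deferens by DESeq2 (log2 difference -2.56, SE 0.81, adjusted p = 0.0101). Its mean was 2.66 CPM at 3 months and 0.471 CPM at 21 months in vas deferens, and 1.40 and 2.28 CPM in caput. Outside efferent ductules the mean of Cyp2f2 was 0.153 to 0.789 CPM at 3 months and 0.226 to 0.668 CPM at 21 months.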

How the results depend on the processing

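No direction of a member named above was reversed under any alternative tried. Leaving out a library moved the age counts of members from 8 to between 2 and 7 in efferent ductules, from 1 to 0 to 4 in initial segment, from 3 to 0 to 9 in caput, from 5 to as few as 3 in corpus and from 8 to as few as 4 in vas deferens. With an unadjusted p and a 1.5-fold change, the counts were 2 in testis, 3 in initial segment, 8 in caput, 9 in cauda and 13 in vas deferens. In 1 fit of all 56 libraries they were 0 in testis, 5 in efferent ductules, 0 in initial segment, 3 in corpus and 1 in cauda. DESeq2 called 1 member in cauda, and no filter gave 2 in initial segment. Region-specific calls were 23 of 48 (3 months) and 22 of 50 (21 months) against each other region, and 33 at 21 months with filterByExpr. Calls over the 6 steps were 118 of 180 and 125 of 191 with a 4-fold change. The interaction test called 2 to 5 members without a replicate number, against 10. The cause was not tested.

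The labels do not tie replicate numbers to mice, and the numbers were not taken as pairs. The mean correlation of same-numbered libraries was 0.03005 at 3 months and 0.0025 at 21 months, and all 4 correlations were over 0.1 in 1 of 21 pairs of regions at 3 months, corpus and cauda, and in 0 of 21 at 21 months. For that step the replicate block gave 22 member calls in place of 24, all 22 shared. With the replicate block the count in efferent ductules was 3 in place of 8, and Cyp4f18 and Cyp2j6 lost their calls in vas deferens.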
